A study of Mus musculus with 27 samples.

Results

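The comparison described here set the retinoic acid culture, called IM3, against the mesoderm it was grown from, called M. The labels give the libraries and their media: 3 M libraries (M_FLyB) and 3 IM3 libraries, 6 of the 27 RNA-seq libraries of the series, were taken by name. All of them came from mouse embryonic stem cells of 1 clone (clone 7) on an F1 C57BL/6 x CBA background, XY and with the genotype Tesco-CFP; R26-rtTA, a reporter for Sertoli cells and a doxycycline-dependent activator that M and IM3 carried alike. M cells had first been turned into epiblast-like cells and then held for 36 hours in bFGF at 20 ng/ml, BMP4 at 10 ng/ml and the PI3 kinase inhibitor LY294002 at 10 µM. IM3 cells went on from M for 3.5 days in bFGF at 5 ng/ml, BMP4 at 20 ng/ml and retinoic acid at 100 nM, without LY294002. The labels call M early mesodermal and IM3 intermediate mesoderm, the embryonic tissue that gives rise to kidney and gonad. A further culture, IM1, which the labels also call intermediate mesoderm, had the IM3 medium without retinoic acid and also had 3 libraries. IM3 and M differ in time, bFGF, BMP4, LY294002 and retinoic acid together, which cannot be told apart between them, whereas the media of IM3 and IM1 differ by the retinoic acid. All these groups rest on a single clone. The study calls the libraries of each sample type biological replicates, and the labels do not say whether they were separate cultures. Every p-value therefore rests on the spread between libraries within groups, pooled over all 27 libraries of the series.

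The gonad forms from the coelomic epithelium on the surface of the intermediate mesoderm. *Wt1* and *Gata4* are transcription factors that this epithelium needs to thicken into a genital ridge, *Tcf21* is a transcription factor of the mesenchyme and lining of many organs, and *Upk3b* encodes a uroplakin found on mesothelium, the flat lining of the body cavities. Retinoic acid is made from vitamin A by retinol and retinaldehyde dehydrogenases, is carried by small binding proteins, is degraded by CYP26 enzymes, and acts through RAR and RXR nuclear receptors that bind DNA as pairs. Among the genes it is known to switch on directly are *Rarb*, *Cyp26a1* and Hox genes at the 3' ends of their clusters, which are used in anterior parts of the embryo.

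*Rarb* and *Cyp26a1* carry a retinoic acid response element in their promoters, and these sequences are shown because the pair moved in opposite directions between M and IM3. The element was searched as GTTCA, then 5 bases of any kind, then AGTTCA, on both strands of the RefSeq promoters (250 bases before to 50 after each start, build GRCm38.p6). A match was found in 11 of 32851 promoters (0.0335%), and in 2 of the 29 retinoid genes that had a promoter in the table. The fixed letters are shared by both elements printed below, so a match in these 2 genes was certain beforehand. Nothing is read from how few promoters matched, here or with the other spacers below. The 150 bases before each start are printed 5' to 3' on the strand of the gene, with the element in capitals. That of *Rarb* is chr14:16575477-16575626, on the minus strand, and its element starts 52 bases before the start. That of *Cyp26a1* is chr19:37697658-37697807, on the plus strand, and its element lies on the other strand and starts 32 bases before the start.
Rarb: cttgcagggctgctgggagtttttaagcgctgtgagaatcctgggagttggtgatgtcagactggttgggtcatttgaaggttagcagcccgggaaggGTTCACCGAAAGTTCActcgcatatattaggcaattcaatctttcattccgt
Cyp26a1: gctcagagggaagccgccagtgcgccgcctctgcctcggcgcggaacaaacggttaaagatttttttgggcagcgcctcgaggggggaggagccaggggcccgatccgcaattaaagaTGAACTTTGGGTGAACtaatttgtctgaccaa
With a spacer of 2 bases or of 1 base the same search matched 5 promoters each (0.0152%), none of them of a retinoid gene. Of the 11 genes with the element, 5 were found by name among the genes tested and 2 changed between M and IM3, against 14.9% of all genes tested. They are the pair printed here, which was picked because it moved, so nothing is read from that count. A match describes letters in this window and does not show that a receptor was bound there.

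The libraries held 51413455 to 59188377 assigned reads in M, 39365494 to 55640100 in IM3 and 67899332 to 84876603 in IM1. Every pair of replicates differed by more than sampling noise, and M replicate 2 stood furthest apart. The chi-square per degree of freedom, which grows with disagreement, was 27.7 and 35.8 for M replicate 2 against replicates 1 and 3. It was 6.72 between M replicates 1 and 3, 7.39 to 16.5 within IM3 and 8.99 to 12.9 within IM1. Mitochondrial genes took 2.04 to 2.14% of reads in M and 1.71 to 1.96% in IM3. The 6 M and IM3 libraries lay on the same side of a trend with GC content and held like amounts of 6 genes of adult red blood cells (12.2 to 21.0 CPM in M and 6.31 to 20.1 in IM3, CPM being counts scaled to library size). The IM1 libraries lay on the other side of that trend and held 0.928 to 1.39 CPM of the 6 genes. Part of any difference of IM1 from IM3 or from M therefore cannot be told apart from this division of the libraries. In bulk RNA a change in the number of cells of a type and a change in RNA per cell cannot be told apart.

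Between M and IM3, 3108 of 20839 genes tested (14.9%) were differentially expressed (DE), 1929 higher in IM3 (9.26%) and 1179 lower (5.66%). DE genes had to reach 3 limits in edgeR, an adjusted p no higher than 0.01, a change of 2-fold or more and 100 or more normalized reads on average. Normalized reads are scaled to 1 common library size and not corrected for gene length. Of the DE genes, 182 rose and 40 fell by 5 or more on the log2 scale. The 10 largest rises held products of blood, liver or yolk sac and lining cells, and the 10 largest falls held regulators of the primitive streak. *Hbb-y*, an embryonic globin, held 0 reads in all 3 M libraries and 324, 373 and 401 normalized reads in IM3, at least 110-fold higher against a floor of 3 reads per library. *Spp2*, a secreted phosphoprotein, held 0 in M and 344, 348 and 341 in IM3, at least 104-fold higher. *Ppbp*, a platelet chemokine, went from 2.21, 1.19 and 0 to 2641, 2330 and 2599, a ratio of 2301 with a counting interval of 787 to 11162. *Afp*, the fetal albumin-like protein, rose from 2.56 ± 0.464 to 3787 ± 210 (SD, n = 3 each), a log2 fold change of 10.46. The other large rises were *Upk1b*, *Upk3b*, the casein *Csn3*, the embryonic globin *Hba-x*, *Zfp804a* and *Pgm5*. At the other end *Msgn1*, a regulator of presomitic mesoderm, held 794, 1046 and 834 normalized reads in M and 0 in all 3 IM3 libraries, at least 223-fold lower. *Hbb-y* lay so near the minimum of reads that leaving out any IM3 library took it below (log2 11.46 to 11.60), and *Msgn1* did the same without any M library (-12.88 to -12.68). The other large falls were *T*, *Fgf8*, *Vrtn*, *Mixl1*, *Eomes*, *Mesp1*, *Sp8*, *Otx2* and *Fgf17*. For all 20 genes the M and IM3 libraries did not overlap, which the choice of these genes required.

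**Figure D1:**
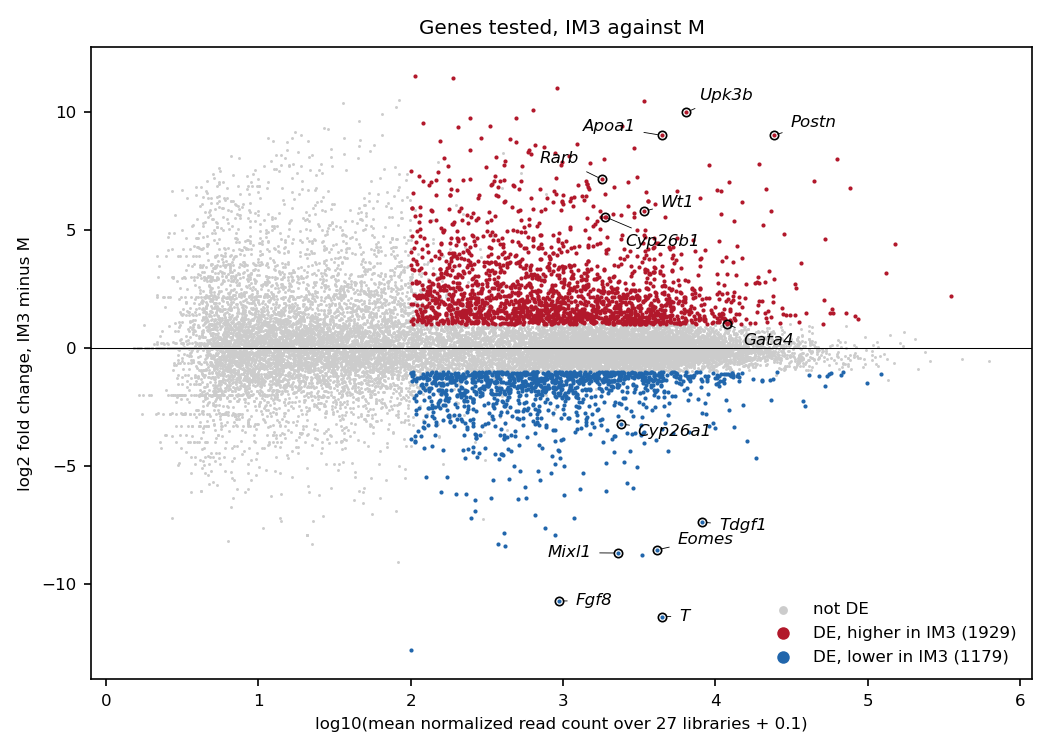
Log2 fold change of IM3 against M (vertical axis) by the log10 of the mean normalized read count over 27 libraries plus 0.1 (horizontal axis) for the 20839 genes tested, with DE genes coloured by direction and some named genes labelled. The 1929 higher and 1179 lower DE genes lie on both sides of the line at 0, and Upk3b and T lie near opposite ends.

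The 4 genes chosen to mark the culture all rose. *Wt1* (ENSMUSG00000016458, chr2:105126529-105173616) held 174, 157 and 193 normalized reads in M and 9266, 10501 and 9174 in IM3. Its log2 fold change was 5.78 (SE 0.12, adjusted p = 9.85e-24), a 54.9-fold rise. *Tcf21* (ENSMUSG00000045680, chr10:22817281-22820174) held 15.4, 3.57 and 7.19 in M and 614, 766 and 619 in IM3, a log2 fold change of 6.22 (SE 0.28, adjusted p = 9.46e-17). For both genes every IM3 library lay far above every M library. *Upk3b* (ENSMUSG00000042985, chr5:136038496-136046487) was at 45.2, 19.1 and 9.25 in M and at 24321, 25677 and 23537 in IM3. That is a log2 fold change of 9.97 (SE 0.30, adjusted p = 1.49e-20). M replicate 1 held the most of the 3 M libraries, and the IM3 libraries were again apart from all of them. *Gata4* (ENSMUSG00000021944, chr14:63198922-63271692) started from a high level, 12932, 12222 and 12042 in M, and reached 23959, 27200 and 23405 in IM3. Its log2 fold change of 1.00 (SE 0.07, adjusted p = 1.1e-12) lay on the fold minimum, and it fell to 0.93 without IM3 replicate 2 and to 0.99 and 0.98 without M replicates 2 and 3, each time losing the DE call. Per length, in TPM (transcript abundance corrected for gene length and library size), *Gata4* was the highest of the 4 in both cultures, at 150 in M and 340 in IM3, while *Upk3b* reached 215, *Wt1* 149 and *Tcf21* 19.3 in IM3.

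**Figure D2:**
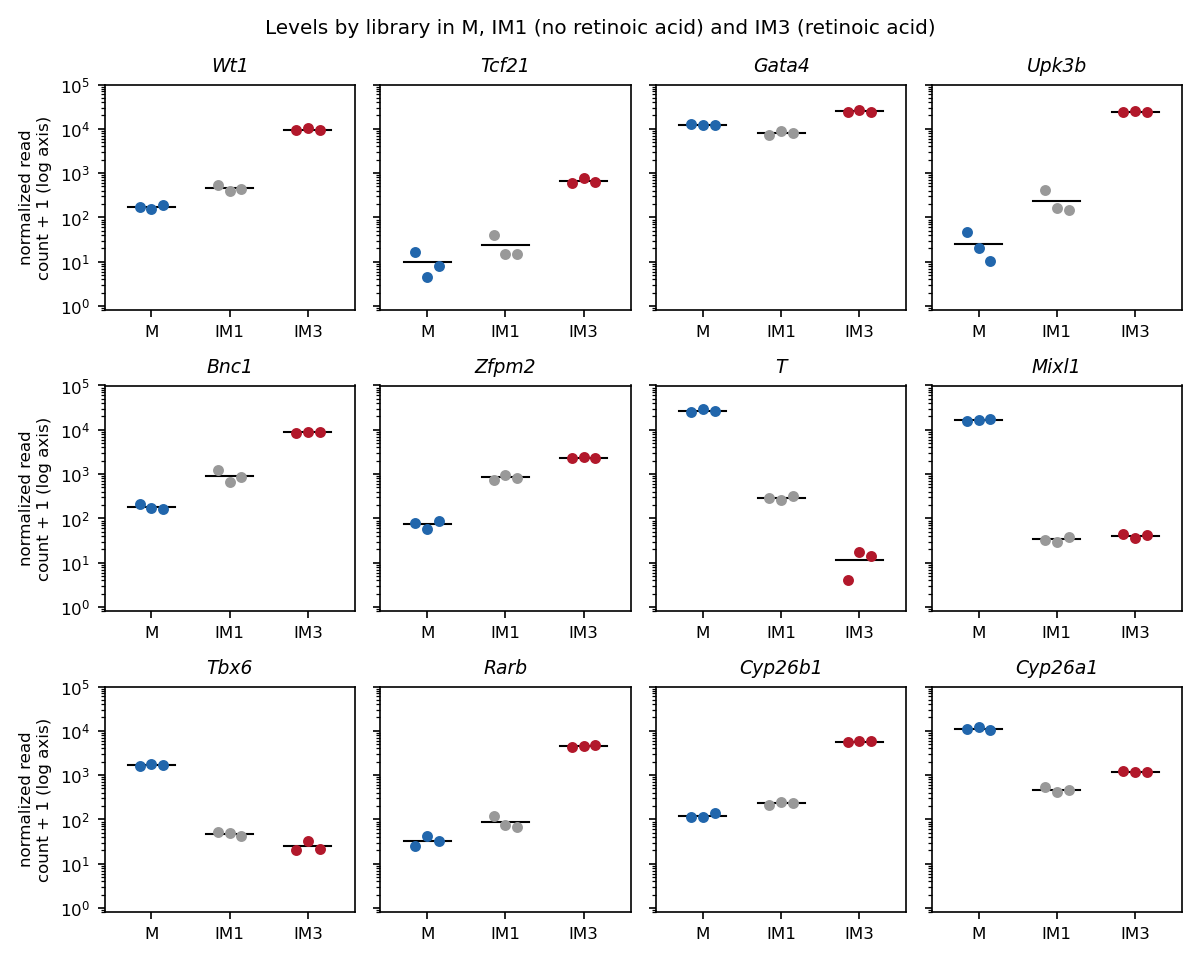
Normalized read count plus 1 (log axis) of 12 named genes in the M, IM1 and IM3 libraries, with a point for each library and a line for the group mean. Wt1, Tcf21 and Upk3b are high in the 3 IM3 libraries and low in M and IM1, while T is high in the 3 M libraries.

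The genital ridge list held 19 tested genes, of which 8 rose, 1 fell and 10 were not DE, with a median log2 fold change of 1.00 against 0.00 over all genes. Of those not DE, 1 that rose and 1 that fell passed the p and fold limits but lay under the minimum of reads. The lowest log2 fold change of the list was -2.83. *Zfpm2*, the cofactor that GATA4 needs in the gonad, rose from 73.9 ± 16.2 to 2343 ± 91.1. *Gata6*, the close relative of *Gata4*, rose from 1613 ± 72.5 to 13718 ± 594, a log2 fold change of 3.09. *Lhx2*, a LIM homeobox gene, rose by 3.72 and *Gadd45g*, a signalling adaptor used upstream of sex determination, by 2.72 on the log2 scale. *Emx2*, a homeobox gene required for the gonadal epithelium, held 67.3, 58.3 and 73.0 in M and 144, 156 and 105 in IM3. Its groups did not overlap, but its log2 fold change of 1.025 lay so near the minimum that leaving out M replicate 2 (0.94), IM3 replicate 1 (0.97) or IM3 replicate 2 (0.92) ended the call. The DE gene that fell, *Cited2*, a transcriptional coactivator also used in the adrenal and gonadal primordium, went from 8351 ± 355 to 3150 ± 175 and is named after its values were seen. Without M replicate 2 or 3 the count that fell was 2. *Lhx9*, required for the gonad to form, held 12.1, 5.95 and 16.4 in M and 202, 260 and 171 in IM3, a log2 fold change of 4.16 (adjusted p = 1.2e-13), and missed the DE call only through the minimum of 100 mean reads. *Cbx2*, a Polycomb gene needed for male sex determination, was at 6997 ± 239 and 5171 ± 366, a log2 fold change of -0.44.

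*Nr5a1*, *Sry*, *Amh* and *Dmrt1* were low in both cultures and not DE or not tested, while other genes of the Sertoli and granulosa lists rose. *Nr5a1*, a nuclear receptor of steroidogenic and supporting cells, is also listed by the study among the key factors of the early genital ridge. *Nr5a1* held 2.21, 0 and 6.17 normalized reads in M and 7.35, 4.46 and 13.1 in IM3, with overlapping groups and an adjusted p of 0.0399. *Sry*, the testis-determining gene, had 1 read in the 3 M libraries and 0 in each IM3 library, where a count of 0 allows up to 3 reads, and was not tested. *Amh*, the Sertoli hormone, was at 29.0 ± 9.91 and 21.9 ± 6.26, and *Dmrt1*, which maintains testis fate, at 44.0 ± 4.45 and 31.8 ± 13.7. *Sox9*, which drives Sertoli fate but also cartilage and other lineages, rose from 397 ± 25.5 to 5394 ± 735 (log2 3.76). IM1 held 6400 ± 1004 of it, and IM3 against IM1 gave -0.25 (adjusted p = 0.0537). Of 23 Sertoli genes tested 10 rose and 1 fell (47.8%), and of 14 granulosa genes 6 rose and 2 fell (57.1%). Of 12 Leydig and steroidogenic genes 1 rose (8.33%, below the 14.9% of all genes tested). A further 3 Leydig, 3 Sertoli and 1 granulosa gene rose past the p and fold limits but lay under the minimum of reads. So did 1 Sertoli gene that fell. Many of these genes are also used outside the gonad.

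Of 16 mesothelial genes tested, 10 rose, 0 fell and 6 were not DE, with a median of 2.05. *Upk1b*, a uroplakin partner of *Upk3b*, held 2.21, 2.38 and 1.03 in M and 2125, 2134 and 2038 in IM3, a log2 fold change of 10.06. *Bnc1*, a zinc finger gene of mesothelium, held 206, 175 and 161 in M and 8675, 8971 and 8992 in IM3, a log2 fold change of 5.62 (SE 0.175, adjusted p = 3.36e-20). In both genes the 3 IM3 libraries differed little and stood well apart from M. *Muc16*, a membrane mucin of serosal linings, went from 1.10, 0 and 1.03 to 342, 352 and 408, a ratio of 496 with a counting interval of 137 to 4103. *Nkain4* rose by 3.54 and the keratin *Krt7* by 2.655 on the log2 scale. Together the 16 genes made 2156 to 2312 TPM in M, 3283 to 3472 in IM3 and 3369 to 3836 in IM1, so the IM3 and IM1 ranges overlapped.

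Nephric genes, the other derivative of the intermediate mesoderm, did not move one way. Of 20 tested, 4 rose and 5 fell, and the median was -0.58. *Gfra1*, the GDNF coreceptor, rose from 3.72 ± 0.912 to 1518 ± 53.0. Its partner *Ret* fell from 1427 ± 56.6 to 108 ± 16.9. *Lhx1*, needed for the nephric duct and also active in the primitive streak, fell from 7330 ± 535 to 50.3 ± 5.57, a log2 fold change of -7.19. *Six2*, a factor of nephron progenitors, fell by 4.69 and *Sall1*, a kidney regulator, by 2.855 on the log2 scale. *Osr1*, an early intermediate mesoderm gene, was at 13.9 ± 1.3 in M, 68.2 ± 20.0 in IM3 and 230 ± 28.7 in IM1, and *Pax2*, a nephric regulator, at 37.9 ± 5.10, 3.92 ± 3.06 and 25.5 ± 0.780. Both IM3 against M values of these genes lay under the minimum of reads. Together the nephric genes made 191 to 211 TPM in M, 61.1 to 66.8 in IM3 and 134 to 151 in IM1.

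Retinoid genes were described by role. Of 41 tested, 14 rose and 4 fell, with a median of 0.85. Of 12 genes of synthesis 4 rose. *Aldh1a2*, the main retinaldehyde dehydrogenase of embryonic mesoderm, held 87.1, 71.4 and 67.8 in M and 853, 1041 and 925 in IM3 (log2 3.64, adjusted p = 4.48e-18). *Aldh1a1* rose from 7.86 ± 6.81 to 134 ± 32.3, and *Aldh1a3* from 42.5 ± 5.96 to 104 ± 13.6, the latter no longer DE without IM3 replicate 1 (log2 1.17). *Dhrs3*, which turns retinaldehyde back into retinol, held 11.0, 23.8 and 26.7 in M and 1462, 1712 and 1562 in IM3, a log2 fold change of 6.25 (SE 0.23, adjusted p = 1.23e-18). The groups of each of these 4 genes did not overlap. *Rdh10*, the first oxidizing enzyme, was at 743 ± 37.8 and 967 ± 46.9 and was not DE.

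Among 7 genes of binding and uptake 3 rose. *Rbp4*, the plasma retinol carrier, rose from 84.6 ± 10.2 to 6172 ± 621, and IM1 without retinoic acid held 6023 ± 302. *Fabp5*, a fatty acid binding protein that also binds retinoic acid, rose from 1210 ± 174 to 6171 ± 403 and *Crabp1*, a cytoplasmic retinoic acid binding protein, from 239 ± 60.1 to 746 ± 75.0. *Crabp2* was at 796 ± 65.5 and 651 ± 50.02, not DE. The highest of these genes per length in IM3 were *Rbp4* at 251 TPM and *Fabp5* at 225 TPM.

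Of 9 receptors and cofactors 1 rose and 1 fell (22.2%, against 14.9% of all genes). *Rarb* held 24.3, 40.5 and 31.9 normalized reads in M and 4215, 4581 and 4685 in IM3. Its log2 fold change was 7.13 (SE 0.23, adjusted p = 9.49e-20), a 139.8-fold rise, and no IM3 library came near an M library. Exons of other genes cover 38.4% of its exon length, so part of its reads is uncertain. *Rara* (2554 ± 43.0 in M, 4601 ± 359 in IM3), *Rarg* (4084 ± 272 and 2594 ± 86.7) and *Rxra* (2190 ± 42.9 and 3609 ± 377) were within the 2-fold minimum. *Rxrg* fell from 136 ± 7.82 to 49.1 ± 9.12. Per length *Rarb* went from the lowest of the 3 RAR genes in M, at 0.290 TPM against 25.2 for *Rara* and 43.1 for *Rarg*, to 46.4 TPM in IM3, beside 51.7 for *Rara* and 31.3 for *Rarg*.

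The degrading enzymes went in opposite directions. *Cyp26b1* held 110, 111 and 140 in M and 5469, 5828 and 5744 in IM3, a log2 fold change of 5.55 (SE 0.34, adjusted p = 7.19e-14). *Cyp26a1* held 11082, 12200 and 10444 in M and 1231, 1200 and 1188 in IM3, a log2 fold change of -3.22 (SE 0.15, adjusted p = 1.13e-16). The IM1 culture held 471 ± 57.8 of *Cyp26a1*, so that IM3 was above IM1 by 1.36 (adjusted p = 2.96e-08) and below M. *Cyp26c1* was low in all 3 cultures and not DE. In TPM the main CYP26 gene was *Cyp26a1* in M (184 against 0.750 for *Cyp26b1*), and in IM3 *Cyp26b1* stood at 39.8 against 22.5.

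Of 10 other target genes 5 rose and 2 fell. *Nr2f2*, an orphan receptor of mesenchyme and veins, held 24.3, 14.3 and 19.5 in M and 2540, 2752 and 2625 in IM3 (log2 7.07). *Nr2f1* rose by 4.72, the transglutaminase *Tgm2* by 4.66, and the corepressor *Nrip1* by 1.53 on the log2 scale. *Hoxb1*, another gene with a known retinoic acid element, fell from 638 ± 30.7 to 62.6 ± 12.5, and IM1 held 5.75 ± 5.12. *Lefty1* fell by 3.19. *Stra8*, which retinoic acid induces in germ cells, was at 1.10, 2.38 and 0 in M and 23.1, 37.2 and 39.2 in IM3, under the minimum of reads, and IM1 held 0.569 ± 0.494.

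**Figure D3:**
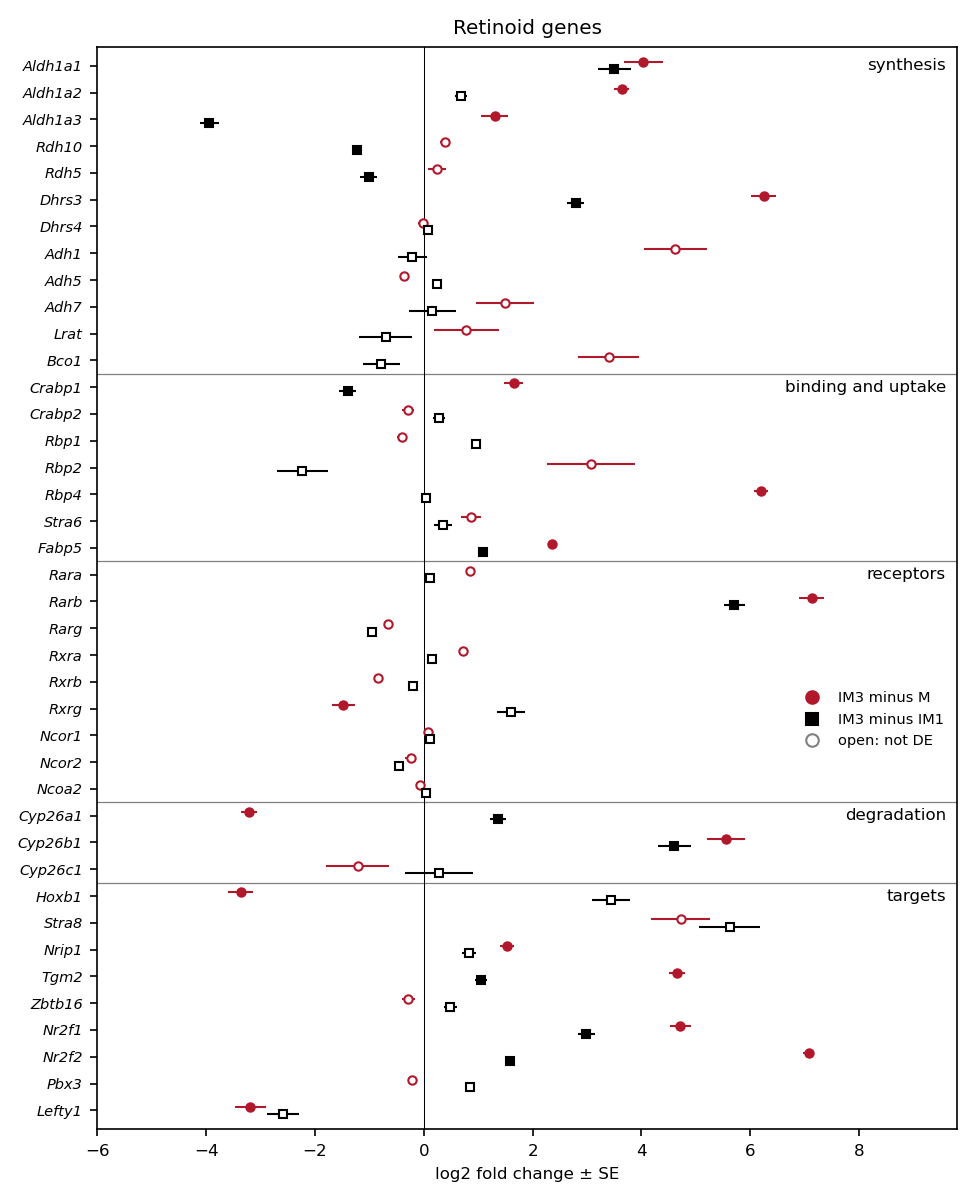
Log2 fold change (horizontal axis, bars are ± SE) of 40 retinoid genes, ordered by role, for IM3 minus M (circles) and IM3 minus IM1 (squares), with open symbols where a gene was not DE. Rarb, Dhrs3 and Cyp26b1 lie far to the right in both comparisons, while Cyp26a1 lies to the left of 0 for IM3 minus M and to the right for IM3 minus IM1.

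All 39 Hox genes were tested, and 17 rose and 2 fell, with a median of 0.93. The genes of paralog groups 1 to 5, which are used in anterior regions, counted 10 higher and 1 lower of 15, with a median of 2.06. Those of groups 6 to 13, used more posteriorly, counted 7 higher and 1 lower of 24, with a median of 0.59. *Hoxa4* held 17.6, 11.9 and 19.5 in M and 563, 726 and 609 in IM3, a log2 fold change of 5.25 (SE 0.24, adjusted p = 9.96e-17). *Hoxa5* held 56.2, 63.1 and 66.8 in M and 676, 650 and 616 in IM3, a log2 fold change of 3.38 (SE 0.195, adjusted p = 1.96e-14). The M and IM3 libraries of both genes did not overlap. In the A cluster each of *Hoxa2* to *Hoxa5* rose, *Hoxa6*, *Hoxa7*, *Hoxa9* and *Hoxa13* were not DE, and *Hoxa10* (57.0 ± 22.9 to 383 ± 32.6) and *Hoxa11* (23.1 ± 2.98 to 252 ± 5.80) rose. Exons of other genes cover 35.0% of the exon length of *Hoxa11*, so its reads are uncertain.

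In the B cluster *Hoxb2*, *Hoxb4* and *Hoxb5* rose by 1.17, 2.995 and 2.18 on the log2 scale, while *Hoxb1* fell by 3.36 and *Hoxb8* by 1.45. Without M replicate 1 *Hoxb1* had nearly the same log2 value (-3.32) but came under the minimum of reads, which left 0 of groups 1 to 5 lower. *Hoxb8* held 352, 456 and 341 in M and 118, 146 and 160 in IM3, groups that did not overlap. In the C cluster *Hoxc4*, *Hoxc5*, *Hoxc6*, *Hoxc8* and *Hoxc9* rose, by 1.13 to 2.06. In the D cluster *Hoxd8* and *Hoxd11* rose by 1.05 and 1.06, and neither passed without IM3 replicate 3 (0.96 and 0.98). *Hoxd8* also lost its call without M replicate 1 (1.00) and *Hoxd11* without M replicate 3 (0.97), which left 0 or 1 of the D genes higher. *Hoxc8* lost its call without IM3 replicate 3 too (1.00), and the count of groups 6 to 13 that rose then went from 7 to 4. Of the genes not DE, *Hoxc12* had reads in the 3 M libraries and 0 in the 3 IM3 libraries.

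Set against IM1, the anterior and posterior groups had medians of opposite sign. Of groups 1 to 5, 6 of 15 were higher in IM3 than in IM1 and 0 lower, with a median of 0.96, and of groups 6 to 13, 0 were higher and 15 of 24 lower, with a median of -2.23, against a background of 6.34% of all genes DE between IM3 and IM1. *Hoxa4* held 17.7 ± 2.38 in IM1, a log2 difference of 5.14 from IM3. *Hoxa13* held 375 ± 18.8 in M, 209 ± 21.7 in IM3 and 1804 ± 58.4 in IM1, and *Hoxd13* 79.4 ± 11.7, 102 ± 36.7 and 977 ± 85.4. *Hoxc10*, at 72.9 ± 4.74 in M and 109 ± 14.2 in IM3, reached 1365 ± 45.9 in IM1, a log2 difference of -3.65. The summed TPM of groups 6 to 13 was 51.0 to 58.0 in M, 80.3 to 97.8 in IM3 and 313 to 331 in IM1.

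**Figure D4:**
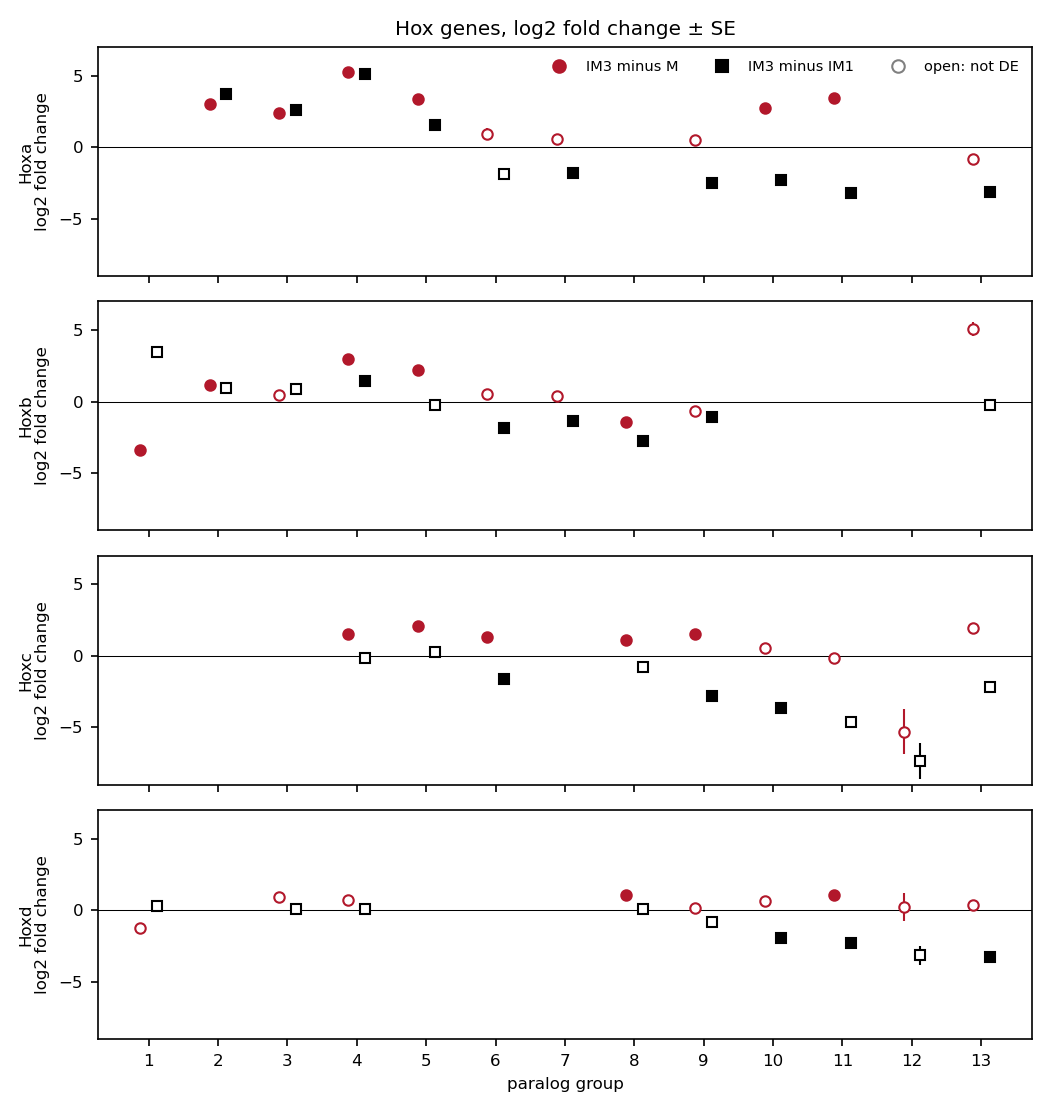
Log2 fold change (vertical axis, bars are ± SE) of 38 Hox genes by paralog group (horizontal axis), with a panel for each cluster, for IM3 minus M (circles) and IM3 minus IM1 (squares), open where a gene was not DE. In cluster A groups 2 to 5 lie above 0 in both comparisons, and groups 6 to 13 of every cluster are DE only below 0 for IM3 minus IM1.

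Regulators of the primitive streak, the site where mesoderm is made, were high in M and low in IM3. Of 19 tested, 16 fell and 0 rose, with a median of -6.09. *T*, the brachyury gene, held 24873, 28969 and 26546 normalized reads in M and 3.15, 16.4 and 13.1 in IM3, an adjusted p of 5.19e-24. IM1 held 294 ± 29.3 of it, so that IM3 was below IM1 too, by 4.86 on the log2 scale. *Mixl1*, an early mesendoderm homeobox gene, held 15705, 16604 and 17326 in M and 43.0, 35.7 and 40.7 in IM3, a log2 fold change of -8.68, and IM1 held 32.9 ± 4.71. *Eomes*, which starts mesoderm and endoderm formation, fell by 8.55 and *Mesp1*, an early cardiovascular regulator, by 8.37 on the log2 scale. The summed TPM of the list was 1473 to 1538 in M and 22.3 to 24.95 in IM3, with 184 to 203 in IM1. Of 15 presomitic genes 8 fell and 1 rose, with a median of -3.13. *Tbx6*, which directs paraxial mesoderm, held 1636, 1771 and 1721 in M and 19.9, 31.2 and 20.3 in IM3. The gene of that list that rose was *Meox1*, a somite homeobox gene, from 29.1 ± 6.68 to 285 ± 62.5.

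Pluripotency and epiblast genes counted 16 lower and 1 higher of 18, with a median of -2.75. *Pou5f1*, the core pluripotency factor, held 7840, 8691 and 7744 in M and 270, 367 and 325 in IM3, a log2 fold change of -4.67. *Nanog* fell from 1952 ± 251 to 94.95 ± 17.3, and the DNA methyltransferase *Dnmt3b* from 22973 ± 745 to 1494 ± 40.6. The summed TPM of the list was 861 to 954 in M, 116 to 119 in IM3 and 234 to 248 in IM1. Of 12 germ cell genes 5 fell and 0 rose.

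Many signalling genes that act in the streak fell as well. In the Nodal pathway 7 of 11 fell and 1 rose. *Nodal*, the ligand, went from 1991 ± 117 to 67.7 ± 11.1, its coreceptor *Tdgf1* from 10416 ± 446 to 62.8 ± 6.66 and the effector *Foxh1* from 9765 ± 934 to 185 ± 2.28. Among FGF ligands and receptors 7 of 14 fell and 2 rose. *Fgf8* held 4855, 4817 and 4006 in M and 3.15, 4.46 and 0 in IM3. *Fgf10*, a mesenchymal ligand, fell from 6906 ± 464 to 1393 ± 62.1, above the 274 of IM1. Of 13 genes of ERK feedback 6 fell and 2 rose.

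Of 12 Wnt target genes 9 fell and 0 rose, with a median of -2.15. *Sp5* fell from 2690 ± 107 to 20.0 ± 2.86 and *Axin2*, a feedback inhibitor, from 9427 ± 300 to 1463 ± 90.6. Wnt ligands and modulators moved both ways, 10 higher and 8 lower of 21. The ligands *Wnt3* and *Wnt8a* fell by 4.93 and 5.21 on the log2 scale, while the secreted antagonist *Sfrp5* rose from 16.2 ± 1.27 to 1335 ± 102 and *Sfrp1* from 885 ± 95 to 20591 ± 678. IM1 held 75.7 ± 18.2 of *Sfrp5* and 2417 ± 413 of *Sfrp1*. Of 14 BMP ligands and antagonists 3 rose and 6 fell. *Bmp4* fell from 12355 ± 225 to 2201 ± 64.1 and *Bmp2* from 5779 ± 203 to 593 ± 68.0, the antagonist *Fst* fell by 5.30 on the log2 scale, and the ligand *Gdf6* rose from 247 ± 25.8 to 1908 ± 30.0. Of 14 BMP response genes 5 rose and 2 fell. In the Notch list 2 of 14 rose and 4 fell, led by the ligand *Dll3* at -7.64 and the ligand *Dll1* at -5.87.

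Of 18 lateral plate and heart field genes 10 rose and 4 fell, with a median of 1.96. *Tbx18*, a gene of the epicardium and body wall lining, held 5.51, 2.38 and 4.11 in M and 1809, 2022 and 1817 in IM3, a log2 fold change of 8.82. *Tbx5*, a heart and forelimb gene, held 47.4, 19.1 and 27.7 in M and 2796, 3261 and 2551 in IM3 (log2 6.499, adjusted p = 5.93e-22), and IM1 held 132 ± 2.59. *Gata5* rose from 13.6 ± 6.37 to 3167 ± 269. Of 12 limb and allantois genes 8 rose and 2 fell. *Tbx4*, the hindlimb and allantois T-box gene, went from 27.8 ± 6.86 in M to 595 ± 47.5 in IM3, while IM1 held 20007 ± 2225, and *Pitx1*, a hindlimb gene, from 53.5 ± 14.5 to 2433 ± 334, with 10998 ± 50.4 in IM1. *Meis1*, a homeobox gene of proximal limb and heart, rose from 367 ± 11.9 to 6309 ± 198, with 773 ± 139 in IM1.

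Of 16 cardiac genes 9 rose, 0 fell and 7 were not DE, with a median of 3.85. *Myh6*, the atrial myosin, held 13.2, 16.7 and 9.25 in M and 2462, 1181 and 1655 in IM3, and *Actc1*, cardiac actin, 259, 238 and 271 in M and 7115, 3408 and 5346 in IM3. IM3 replicate 1 was the highest and replicate 2 the lowest for both genes, and neither overlapped M. Cardiac genes had a summed TPM of 44.9 to 53.0 in M, 600 to 924 in IM3 and 388 to 439 in IM1. Of 16 smooth muscle genes 8 rose, 0 fell and 8 were not DE, 2 of the 16 having negative values, and their summed TPM was 1450 to 1559 in M, 4116 to 4628 in IM3 and 5199 to 5565 in IM1. *Acta2*, smooth muscle actin, rose from 1891 ± 102 to 46676 ± 5310, and IM1 held 106294 ± 6282.

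Markers of other cell types moved with the comparison, and their part in the results above was not tested. Of 18 endothelial genes 11 rose and 2 fell, with a median of 3.25. *Tek*, an angiopoietin receptor, rose from 15.3 ± 10.4 to 3938 ± 211 and *Cdh5*, the junction cadherin of vessels, from 39.0 ± 8.13 to 1484 ± 117. The summed TPM of the list was 145 to 157 in M, 200 to 236 in IM3 and 432 to 447 in IM1. Of 12 primitive erythroid genes 4 rose and 0 fell. The globins *Hba-x* (0.764 ± 0.663 to 734 ± 74.7), *Hbb-y* and *Hbb-bh1* rose, while *Gata1* (14.5 ± 9.13 and 13.4 ± 7.28) and *Klf1* (13.6 ± 1.27 and 20.2 ± 2.06), which define the lineage, were not DE and are named after their values were seen. Reads shared by closely related globin genes were divided by estimation, so their single values are uncertain. Adult red blood cell genes counted 0 of 6 DE with edgeR, and the median was -0.16.

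Of 6 megakaryocyte genes tested 2 rose and the summed TPM was 2.50 to 2.95 in M and 85.9 to 95.7 in IM3, of which *Ppbp* had a mean of 84.7. *Pf4*, another platelet chemokine, had 0, 3.57 and 1.03 normalized reads in M and 3.15, 4.46 and 2.91 in IM3 and was too low to be tested; it is named after its values were seen. Of 6 macrophage genes 1 rose (16.7%, near the 14.9% of all genes), *Csf1r*, from 19.6 ± 12.4 to 546 ± 63.0. The summed TPM of the macrophage genes was 4.04 to 4.87 in M and 8.02 to 8.39 in IM3. Of 15 endoderm genes 7 rose and 2 fell. *Apoa1* rose from 11.7 ± 6.18 to 6049 ± 739 and *Apob* from 334 ± 58.5 to 24274 ± 2128, both lipoprotein genes of yolk sac and liver, and IM1 held 3951 ± 229 and 23403 ± 2101 of them.

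**Figure D5:**
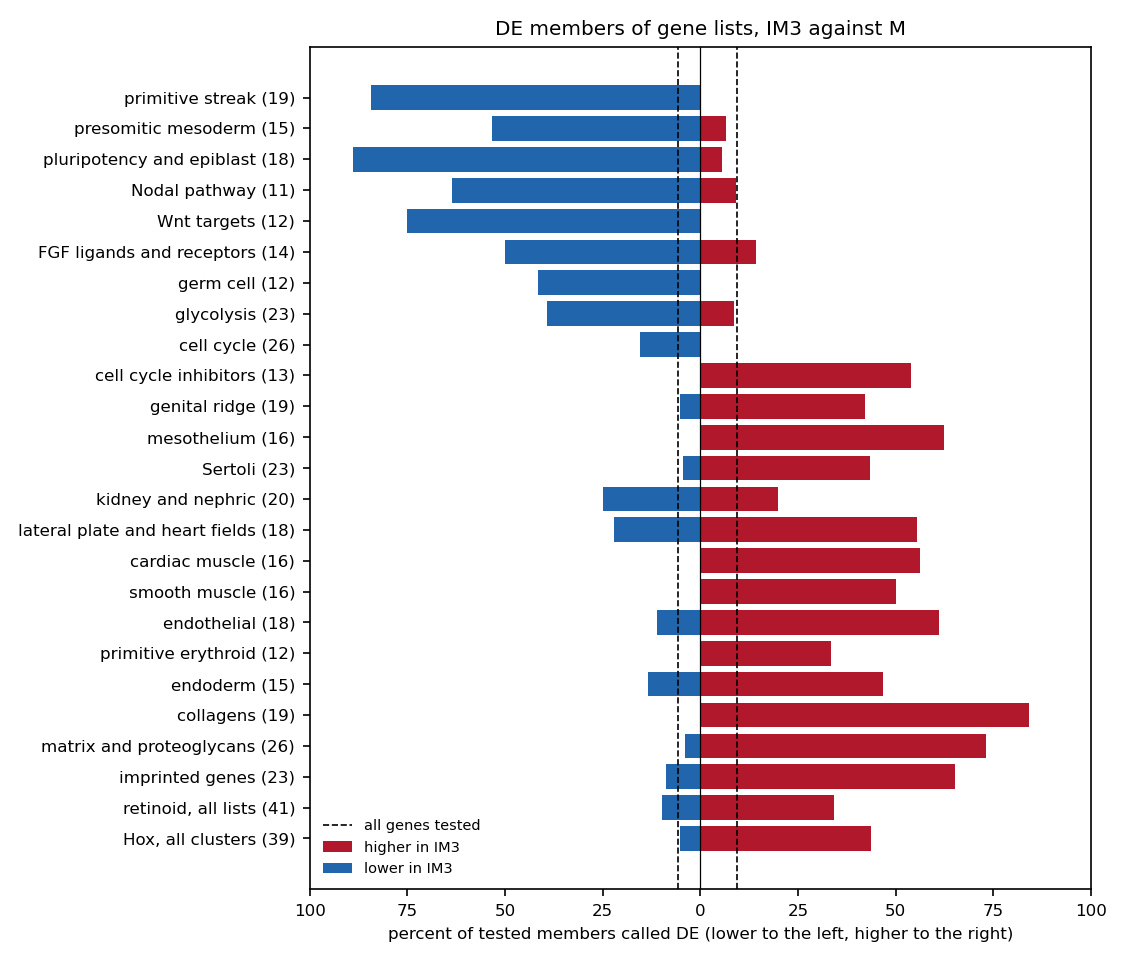
Percent of the tested members of 25 gene lists (number tested in parentheses) that were DE and higher (right) or lower (left) in IM3 than in M, with dashed lines at the 9.26% and 5.66% of all genes tested. Collagens, matrix and mesothelium lie to the right, and primitive streak and pluripotency lie to the left.

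Of 19 collagen genes 16 rose and 0 fell, with a median of 3.06, and of 26 other matrix genes 19 rose and 1 fell, with a median of 2.50. *Col3a1*, a fibrillar collagen of soft tissue, held 109, 176 and 164 in M and 35594, 42196 and 37608 in IM3, a log2 fold change of 8.004. *Postn*, periostin, held 115, 63.1 and 62.7 in M and 39157, 42045 and 40974 in IM3, a log2 fold change of 8.99 (SE 0.13, adjusted p = 6.09e-27). IM1 held 4501 ± 136 of *Postn*. *Fmod*, *Lum* and *Dcn*, small leucine-rich proteoglycans, rose by 8.11, 6.17 and 5.54 on the log2 scale. Collagens had a summed TPM of 222 to 240 in M, 1641 to 1988 in IM3 and 1913 to 2057 in IM1.

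Of 14 IGF pathway genes 6 rose and 0 fell: *Igf1* went from 2.21 ± 0.163 to 773 ± 49.7 and *Igfbp5* from 177 ± 8.72 to 22893 ± 918. Of 23 imprinted genes 15 rose and 2 fell, with a median of 1.42. *Dlk1*, a Notch-like protein of progenitors, held 885, 861 and 742 in M and 87364, 99038 and 81170 in IM3 (log2 6.75), and *Plagl1*, a growth regulator, rose from 538 ± 98.8 to 72205 ± 4100. *Phlda2*, which restrains placental growth, fell from 13543 ± 1737 to 1257 ± 184, whereas IM1 held 14185 ± 1240. Of 26 cell cycle genes 0 rose and 4 fell (15.4%, near the 14.9% of all genes), among them *Myc* at -2.08 and *Ccnd1*, a G1 cyclin, at -1.095. Of 13 cell cycle inhibitors 7 rose and 0 fell, led by *Cdkn1a* (1207 ± 40.3 to 10607 ± 755).

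Glycolysis genes counted 2 higher and 9 lower of 23, with a median of -0.86. *Ldha*, lactate dehydrogenase, held 88193, 106679 and 87182 in M and 19283, 19609 and 19636 in IM3 (log2 -2.27, adjusted p = 1.15e-19), and the glucose transporter *Slc2a3* fell by 2.46 on the log2 scale. The summed TPM of the list was 11542 to 12118 in M and 5802 to 6027 in IM3. Of 17 interferon and MHC genes 1 rose and 8 fell, with a median of -1.04. *Irf1*, an interferon regulatory factor, fell from 12720 ± 565 to 616 ± 14.1 and *Psmb8*, an immunoproteasome subunit, from 1260 ± 112 to 17.4 ± 1.75.

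Genes of the epithelial to mesenchymal switch went both ways, 7 higher and 6 lower of 17. *Epcam*, an epithelial adhesion molecule, fell from 3765 ± 247 to 608 ± 42.2 and the epithelial splicing factor *Esrp1* from 2582 ± 177 to 314 ± 45.6, while the mesenchymal regulator *Snai2* rose from 138 ± 20.3 to 1548 ± 79.6 and P-cadherin, *Cdh3*, from 1538 ± 69.9 to 16780 ± 673. Of 6 PDGF genes 3 rose and 1 fell. *Pdgfra*, a receptor of early mesenchyme, rose from 6218 ± 417 to 20496 ± 536, against 4771 in IM1, and *Pdgfrb*, a receptor of perivascular cells, from 4386 ± 92.3 to 10197 ± 76.1, against 20431 in IM1. The difference between IM3 and IM1 was 2.10 for *Pdgfra* and -1.003 for *Pdgfrb* on the log2 scale, and both passed the test, although *Pdgfrb* came under the fold minimum (-0.89) once the GC trend was corrected. The ligand *Pdgfa* fell from 1625 ± 119 to 465 ± 28.9, with 1650 in IM1. Of 17 axon guidance genes 7 rose and 1 fell: the semaphorin *Sema3a* rose from 112 ± 20.7 to 1795 ± 208 and the netrin *Ntn1* fell from 907 ± 84.9 to 107 ± 16.0. In the Hedgehog list 3 of 13 rose and 3 fell, and the receptor and target *Ptch1* fell from 6172 ± 487 to 2564 ± 109.

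Of 14 DNA methylation genes 4 rose and 3 fell, and *Dnmt3l*, the partner of the de novo methyltransferases, went from 888 ± 40.9 to 55.4 ± 13.9, while the demethylating enzymes *Tet2* and *Tet3* rose by 1.33 and 1.21 on the log2 scale. Of 17 Polycomb genes 3 rose and 2 fell (29.4%), with a median of -0.10. *Cbx7*, a subunit typical of pluripotent cells, fell from 3051 ± 185 to 405 ± 51.0 and *Bmi1*, another subunit, rose from 1140 ± 21.1 to 2649 ± 176.

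The IM1 culture had the same medium without retinoic acid, and its libraries also lay across the GC trend from those of IM3 and M. Between IM1 and M 3262 genes (15.7%) were DE, and between IM3 and IM1 1321 (6.34%), 545 of them higher in IM3 and 776 lower. Of the 3108 genes DE between IM3 and M, 813 also differed between IM3 and IM1. Both comparisons use the same IM3 libraries and minimum of reads, which raises their overlap by design, so nothing is read from that count. IM1 and IM3 share the same M libraries, so the values are set side by side. *Wt1* was at 456 ± 78.6 in IM1, a log2 difference of 4.41 below IM3 (adjusted p = 3.26e-21), and *Upk3b* at 238 ± 149, a difference of 6.71 (adjusted p = 1.92e-18). *Tcf21* was at 22.6 ± 14.7, a difference of 4.91, and *Gata4* at 8181 ± 874, a difference of 1.60 (adjusted p = 4.34e-16), so that *Gata4* was lower in IM1 than in M and higher in IM3. *Bnc1* held 912 ± 280 in IM1, a difference of 3.29. In an alternative fit that was added later and corrects each library's GC trend, the differences from IM1 were 4.51 for *Wt1*, 6.79 for *Upk3b*, 4.90 for *Tcf21*, 1.73 for *Gata4* and 3.24 for *Bnc1*.

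The lists can be read the same way, each count beside the 6.34% of all genes that differed between IM3 and IM1. Of the mesothelial genes 8 of 16 were higher in IM3 than in IM1 and 0 lower (median 1.43), of the genital ridge genes 7 of 19 were higher and 2 lower (median 0.89), and of the retinoid genes 10 of 41 were higher and 4 lower. Of the cardiac genes 7 of 16 were higher and 0 lower. Of the nephric genes 0 were higher and 10 of 20 lower, and of the endothelial genes 0 were higher and 12 of 18 lower. Of the primitive streak genes 10 of 19 were lower still in IM3 than in IM1. *Rarb* was at 86.8 ± 28.7 in IM1 and *Cyp26b1* at 233 ± 16.7, log2 differences of 5.71 and 4.60 below IM3. *Aldh1a3* was the reverse, at 1613 ± 417 in IM1, a log2 difference of -3.94. *Rbp4*, *Sox9*, *Afp* and *Col1a1* did not pass the test between IM3 and IM1, with log2 differences of 0.04, -0.25, 0.27 and -0.14.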

How the data were processed

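Libraries were made from Trizol total RNA with the TruSeq Library Prep kit V2 and sequenced on an Illumina HiSeq instrument. The authors deposited expected counts and TPM per gene, with effective gene lengths, made per the labels with cutadapt 1.9.1, STAR 2.5.2a and RSEM 1.3.0; the strand setting is not given in the sources used here. Of 48795 genes listed, 48435 (99.26%) matched the GENCODE M21 annotation by identifier.

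The expected counts were rounded and tested in edgeR 4.0.16 (R 4.3.3) by the quasi-likelihood test, with TMM scaling, all 27 libraries in 1 model and 1 coefficient per group. P-values were adjusted by Benjamini-Hochberg over all 20839 genes tested. Genes were called DE at an adjusted p no higher than 0.01 when they changed 2-fold or more and averaged 100 or more normalized reads, both over all libraries and in 1 of the groups compared. TPM was used to compare levels between genes. The comparison and the gene lists were chosen with earlier results of these data known. The text names *Wt1*, *Tcf21*, *Gata4* and *Upk3b*, the 10 largest rises and falls without overlap between groups, all retinoid and Hox genes, up to 6 DE genes with the largest change in each other list, and 14 genes measured in the study. Genes with over 50% of exon length inside other genes were left out of the largest changes. Intervals are 95% and cover counting error only. With 39365494 to 59188377 reads in each M and IM3 library, precision was set by the pooled spread and 3 libraries per group, not depth.

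Alternatives were DESeq2 1.42.0 (size factors, or its Wald test), no filter on low counts, no minimum of reads or of fold, an adjusted p of 0.05, the 2 groups alone, an offset for gene length, the replicate number as a block, and leaving out each library. Some named genes are not reported here. An offset for GC content was added after the data were seen. The pipeline was first tested on simulated data. Same-numbered M and IM3 libraries had correlated deviations of 0.121, 0.120 and 0.057. These values were low, although each M library matched the IM3 library of its own number best. The labels do not say whether the numbers mark pairs, so they were not taken as pairs.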

Additional observations from a re-analysis of the deposited data

Results flagged for a closer look

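Among the Hox genes, *Hoxb8* moved from M in opposite directions with and without retinoic acid, with the difference between IM3 and IM1 itself tested in edgeR. *Hoxb8* was lower in IM3 by -1.45 and higher in IM1 by 1.27, a difference of -2.72 (SE 0.165, adjusted p = 2.23e-13). The 3 libraries of each culture lay apart from those of the other 2 cultures. The IM1 libraries lay on the other side of the GC trend from both M and IM3. Part of the rise from M to IM1 therefore cannot be told apart from this division. With an offset for GC content the difference between IM3 and IM1 was -2.43 (SE 0.155, adjusted p = 7.04e-13).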

How the results depend on the processing

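The 3108 DE genes numbered 3109 to 3148 when any 1 library was left out, with 1907 to 1960 higher and 1177 to 1202 lower, and IM3 against IM1 gave 1278 to 1373. Without the minimum of normalized reads the counts were 5402 (3374 higher, 2028 lower) and 2497 for IM3 against IM1, and without the fold minimum 9485 (4586 higher, 4899 lower) and 7198. The replicate block gave 3113 and 1321 and changed none of the 316 calls of named genes, and pairing of the libraries is not established. The GC offset gave 3201, of which 2875 were shared with the 3108, moved the median of all genes to -0.116 and took the share higher from 62.1 to 53.7%. For IM3 against IM1 it gave 1233 DE genes, 1129 of them shared with the 1321, 47.2% higher, and 126 of 136 named calls kept with 0 turned. DESeq2 gave 3091. Direction turned for 5 genes that were not DE, and the cause was not tested. *Dhrs4* was at 0.000 with DESeq2 size factors or its Wald test and ran from -0.081 to 0.035 over the left-out libraries, with the positive value without M replicate 2. *Ncor1* was at -0.058 and *Hoxd9* at -0.038 with the GC offset. *Hoxc11* ran from -0.329 to 0.234 and was positive without M replicate 3 or IM3 replicate 1, and *Hoxd12* ran from -0.346 to 2.058 and was negative without M replicate 1 or 3 or IM3 replicate 2. Calls near the fold minimum were also lost with the GC offset, among them *Gata4* (0.874) and *Emx2* (0.885). Depth limits *Sry*, *Nr5a1* and *Pf4*, whose counts were too few to show a difference.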

Other observations

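Of 12 genes of cartilage, bone and fibroblasts 6 rose and 1 fell in IM3 against M, and their summed TPM was 69.4 to 79.8 in M and 794 to 1041 in IM3. *Sox5* and *Sox6*, partners of *Sox9* in cartilage, went from 6.19 ± 1.27 to 752 ± 30.3 and from 72.7 ± 16.2 to 3710 ± 140 normalized reads (SD, n = 3 each), while *Acan*, the cartilage proteoglycan, fell from 210 ± 1.59 to 57.6 ± 8.11. Neural genes counted 1 higher and 1 lower of 11, trophoblast genes 1 and 1 of 9, and surface ectoderm genes 1 and 1 of 8. Of all genes tested 14.9% were DE, and with so few DE genes in such short lists nothing is read from these counts. *Grhl3*, a surface ectoderm regulator, was at 66.7 ± 14.5 in M, 949 ± 57.4 in IM3 and 89.0 in IM1, a log2 difference of 3.42 between IM3 and IM1. Of the immediate early genes, *Jun* rose from 1242 ± 53.0 to 6621 ± 600, and *Fos* fell from 915 ± 68.5 to 250 ± 22.5.

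Within IM1, the culture without retinoic acid, replicate 1 held more reads of several genes that were high in IM3 than replicates 2 and 3 did. *Ppbp* was at 65.9 normalized reads against 9.88 and 0.829, *Csn3* at 29.0 against 4.24 and 0.829, *Upk3b* at 410 against 162 and 143, and *Tcf21* at 39.6 against 14.1 in both others. Among the M libraries, *Upk3b* was at 45.2 in replicate 1 against 19.1 and 9.25. These genes were singled out after their values were seen.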
